A study of Mus musculus with 6 samples.

Results

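The genes examined here encode 10 receptors through which pituitary corticotrophs are stimulated or restrained. They are the hypothalamic peptide receptors Crhr1 and Avpr1b, the corticosteroid receptors Nr3c1 and Nr3c2, the inhibitory receptors Sstr2, Sstr5, Drd2 and Oprm1, and the cytokine receptor chains Lifr and Il6st. They were taken by symbol, and every probe set that the platform annotation gives to one of these symbols alone was kept, which gave 24 probe sets of 10 genes, out of 18193 genes with such a probe set and 45101 probe sets on the array. A probe set is a group of oligonucleotides whose signals are read together as 1 value, and it can match more than 1 transcript form. The cells were AtT-20, a line from a mouse pituitary tumour that keeps corticotroph traits, and they received siRNA at 20 nM again and again for 8 days. The knockdown group (siDNMT1) got siRNA against Dnmt1, the maintenance DNA methyltransferase, and the control group (siNT) got a non-targeting siRNA. Each group holds 3 arrays of total RNA, 1 from every independent repeat of the experiment. Both groups share the repeated siRNA treatment and the cell line, no untreated cells were among the samples analysed here, and a single tumour line stands for the corticotroph.

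Corticotrophs make pro-opiomelanocortin and release its product ACTH. CRH acts on them through Crhr1, Gs and cyclic AMP, and vasopressin through Avpr1b, Gq and phospholipase C. Glucocorticoids feed back through the receptor encoded by Nr3c1, somatostatin and dopamine inhibit secretion through Gi-coupled receptors, and leukaemia inhibitory factor raises Pomc transcription through Lifr, the shared chain gp130 encoded by Il6st, and Stat3.

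Dnmt1 copies methylation at CpG dinucleotides, so the CpG content of the members' promoters is given first. The arrays analysed here measured RNA only. Whether any of these promoters was methylated, or lost methylation in the knockdown, was not tested, and a CpG count does not show it. RefSeq promoter windows of assembly GRCm38.p6, 300 bases from 250 before to 50 after an annotated start, were at hand for 7 of the 10 genes and covered 10 starts. Printed here are windows of Sstr2 and of the members that had a probe set with lower, non-overlapping signals in the knockdown (Crhr1, Il6st and Oprm1). The windows with the most CpGs (Lifr start 1) and the fewest (Oprm1 start 1) are not among them. Capitals mark each CpG.
Crhr1, chr11:104132531-104132830, plus strand: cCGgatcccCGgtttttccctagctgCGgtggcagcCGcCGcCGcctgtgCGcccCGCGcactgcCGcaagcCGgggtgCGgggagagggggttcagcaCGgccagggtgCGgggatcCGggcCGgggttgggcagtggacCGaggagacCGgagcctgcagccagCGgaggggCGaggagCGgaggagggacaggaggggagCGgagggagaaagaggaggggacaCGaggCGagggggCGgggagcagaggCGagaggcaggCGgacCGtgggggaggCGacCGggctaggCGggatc
Sstr2, chr11:113619077-113619376, plus strand: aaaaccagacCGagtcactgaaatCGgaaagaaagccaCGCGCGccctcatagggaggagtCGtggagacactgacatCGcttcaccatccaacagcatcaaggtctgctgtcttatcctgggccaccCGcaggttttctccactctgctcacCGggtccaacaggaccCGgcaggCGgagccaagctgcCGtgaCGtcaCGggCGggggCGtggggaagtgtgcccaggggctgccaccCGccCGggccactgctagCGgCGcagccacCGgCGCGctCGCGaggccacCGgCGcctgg
Il6st, chr13:112463820-112464119, plus strand: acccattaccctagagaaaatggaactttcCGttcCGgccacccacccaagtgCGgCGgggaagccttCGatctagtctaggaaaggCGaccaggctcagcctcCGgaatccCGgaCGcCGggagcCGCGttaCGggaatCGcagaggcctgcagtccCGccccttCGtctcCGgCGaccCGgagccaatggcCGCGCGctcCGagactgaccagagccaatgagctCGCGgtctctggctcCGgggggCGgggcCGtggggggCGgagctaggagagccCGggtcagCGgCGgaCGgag
Oprm1 start 3, chr10:6788326-6788625, plus strand: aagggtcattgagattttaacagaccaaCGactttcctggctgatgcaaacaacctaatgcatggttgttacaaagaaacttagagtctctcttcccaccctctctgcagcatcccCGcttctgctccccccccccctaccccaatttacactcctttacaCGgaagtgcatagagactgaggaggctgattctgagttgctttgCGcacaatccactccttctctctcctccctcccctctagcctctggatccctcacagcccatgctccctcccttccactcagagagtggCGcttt

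The Crhr1 window held 31 CpGs, the Sstr2 window 27 and the Il6st window 33, against a median of 7 and an upper quartile of 20 over 32851 windows. The Oprm1 windows of its 3 annotated starts held 3, 4 and 5 CpGs. Of the other members, Drd2 had 23, Nr3c2 17, and the 2 Lifr starts 53 and 4. Sstr2 was the only one of the 7 genes whose windows held the palindromic cyclic AMP response element TGACGTCA, searched on both strands, which begins at base 193 of its window and contains a CpG. That motif occurs in 1.79% of all windows. The palindromic glucocorticoid response element, AGAACA and TGTTCT with any 3 bases between them, matched 0 member windows and 0.00913% of all windows.

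**Figure D1:**
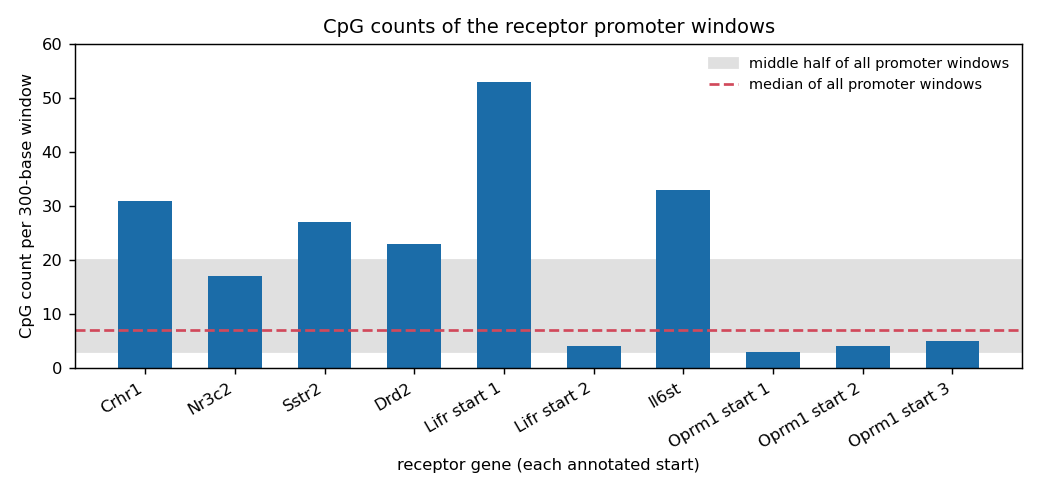
CpG count (vertical axis) in the 300-base promoter window of each annotated start of the 7 receptor genes with a RefSeq window. The grey band spans the quartiles of all windows, 3 to 20, and the dashed line is their median of 7. Lifr start 1 is highest at 53 and Oprm1 start 1 lowest at 3.

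Signals are on a linear scale after each array was brought to the same median, and log2 differences are siDNMT1 minus siNT on the log2(scaled signal + 5.29) scale. The files carry no detection calls. Background was therefore taken as the 95th percentile of the 44 probe sets for olfactory receptor genes on each array, 31.6 to 47.8, and a probe set below it is one whose transcript the array did not separate from background. By this measure 7 of the 24 probe sets were above background on all 6 arrays. These were both of Crhr1, 1 of 6 for Nr3c1, those of Sstr2 and Sstr5, and 2 of 4 for Il6st. The 14 probe sets that were above it on no array included every one of Avpr1b, Nr3c2, Lifr and Oprm1 and the single one of Drd2. A filter on mean signal (16.8 or more) left 15 probe sets of 8 genes for testing. Avpr1b and Nr3c2 were left out whole.

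Dnmt1 itself checks the labels. Its brightest probe set had scaled signals of 214, 142 and 301 on knockdown arrays 1 to 3, against 541, 701 and 619 on control arrays 1 to 3, and the groups did not overlap (log2 difference -1.54, SE 0.24). The limma adjusted p was 0.151 without and 0.0211 with the repeat number as a block. With the block it was 0.0551 under trimmed mean scaling, 0.0527 under quantile scaling and 0.248 without the filter on dim probe sets. The dimmer Dnmt1 probe sets differed by -1.81 (SE 0.26) and -1.75 (SE 0.25), also without overlap. Their limma adjusted p was 0.151 each without the block, and 0.0141 and 0.0197 with it. With the block but no filter it was 0.237 each. The corticotroph markers were present: Pomc averaged 8443 ± 2553 with siDNMT1 and 9229 ± 1974 with siNT (SD, n = 3 each), and all 6 measured markers, Pomc, Tbx19, Neurod1, Pitx1, Pcsk1 and Cpe, lay above background on all 6 arrays. Of 10 markers of other pituitary cells none was above background on all 6 arrays, and the sum of their signals was 176 to 291 on knockdown and 169 to 277 on control arrays. Of 9 fibroblast, endothelial and leukocyte markers, Col1a2 and Csf1r were above it on all 6 arrays, and Ptprc, which defines leukocytes, on 0. Their summed signal was 317 to 362 on knockdown and 291 to 337 on control arrays, and the part of such cells in the results was not tested. In RNA from whole cultures, fewer cells with a transcript and less transcript per cell cannot be told apart.

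**Figure D2:**
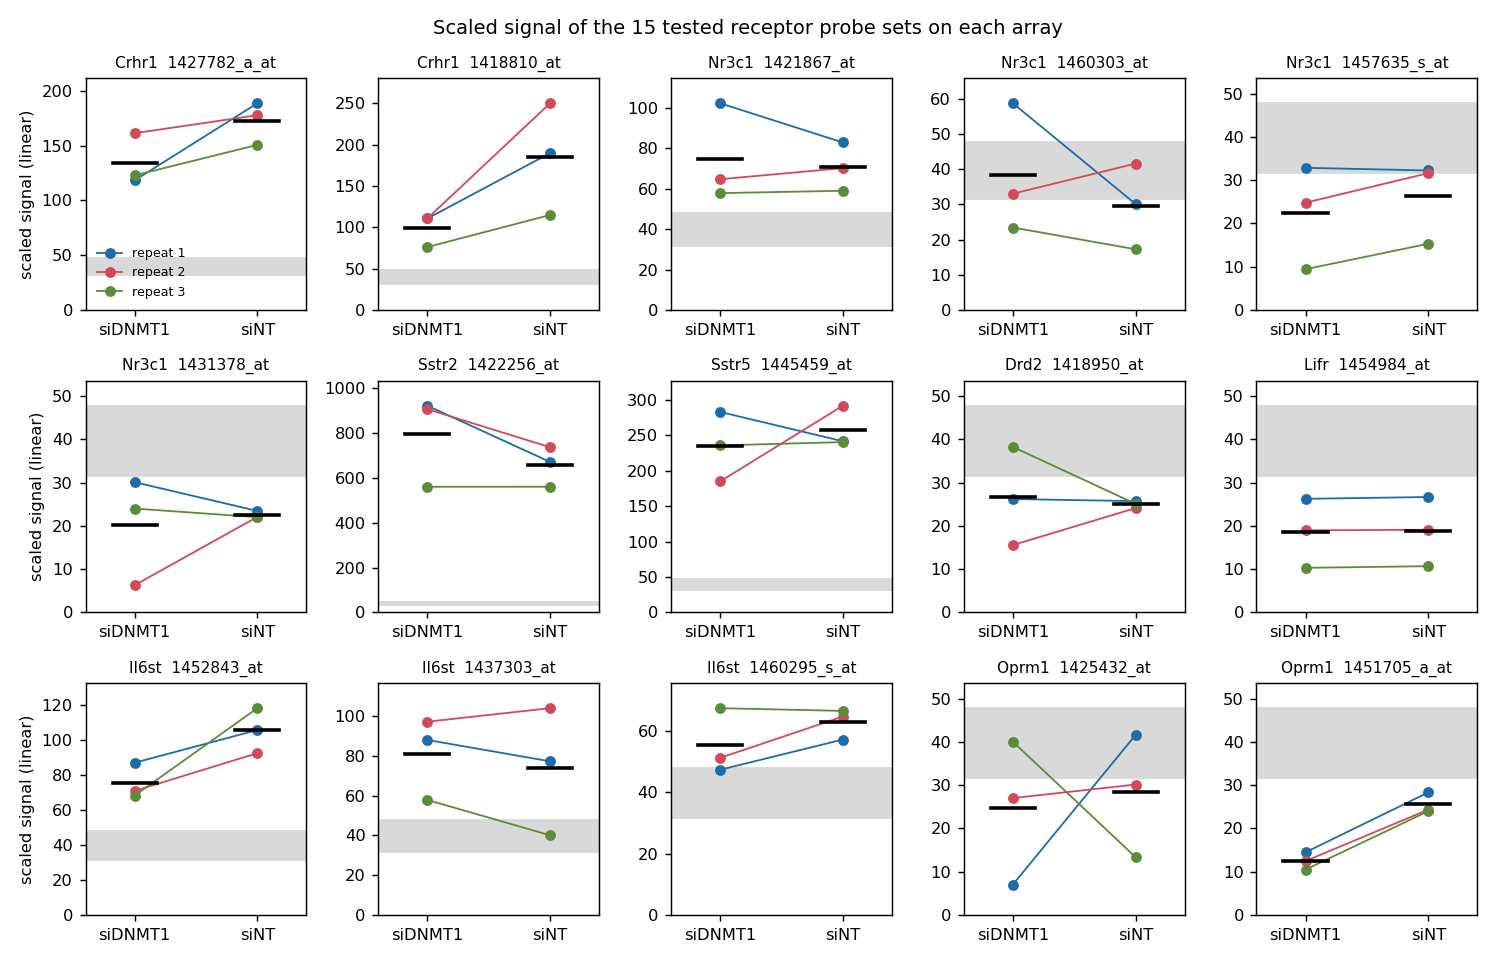
Scaled signal (linear vertical axis, arbitrary units) of the 15 tested receptor probe sets, with siDNMT1 on the left and siNT on the right of each panel. Points are arrays, lines join arrays of the same repeat, black bars are group means and the grey band is the range of the background level over the 6 arrays, 31.6 to 47.8. Crhr1, Sstr2 and Sstr5 lie clear of the band, and Drd2, Lifr and Oprm1 in or under it.

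Among the stimulatory receptors, Crhr1, which couples CRH to cyclic AMP, had lower signals in the knockdown on both of its probe sets and in 3 of 3 repeats on each. On 1418810_at the scaled signal was 111, 111 and 76.1 on knockdown arrays 1 to 3, against 189.8, 250.1 and 115 on control arrays 1 to 3. The highest knockdown value lay just under the lowest control value, that of repeat 3, and both knockdown and control were lowest in that repeat. Relative to the control array of the same repeat, the knockdown signal was 58.3%, 44.3% and 66.2%, with group means of 99.2 ± 19.9 with siDNMT1 and 185 ± 67.7 with siNT (SD, n = 3 each). The log2 difference was -0.82 (SE 0.28, 95% interval -1.42 to -0.21).

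Crhr1 did not pass the threshold of 0.05 after adjustment over 27022 tested probe sets. For 1418810_at limma gave an unadjusted p of 0.0126 and an adjusted p of 0.9997, and with the repeat number as a block 0.000593 and 0.176. The exact permutation test gave 0.1, the smallest p that 3 arrays against 3 allow. Under each of the 3 other scalings the groups overlapped, with differences of -0.76 to -0.79. The blocked adjusted p was 0.00712 without repeat 3, where the fit rests on 2 pairs. The other probe set, 1427782_a_at, was the brighter one by its mean over all arrays and stands for Crhr1 in the counts per gene. On it the signal was 118, 161 and 123 in the knockdown, against 189, 178 and 151 in the control. The groups overlapped there, since knockdown array 2 exceeded control array 3. The difference of this probe set was -0.36 (SE 0.20, 95% interval -0.79 to 0.07), smaller than that of 1418810_at.

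Avpr1b encodes the V1b vasopressin receptor. Its probe set read 3.82, 6.64 and 6.13 on knockdown arrays, against 4.65, 2.08 and 5.45 on control arrays. All 6 values were near or below the pseudocount of 5.29, so no level could be measured in either group (exact permutation p = 0.4).

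Of the corticosteroid receptors, Nr3c1 encodes the glucocorticoid receptor, the main feedback sensor of the corticotroph, and was measured by 6 probe sets. The brightest, 1421867_at, read 102, 64.7 and 57.8 in the knockdown, against 82.9, 70.2 and 59.0 in the control. The groups overlapped and the order of the repeats was the same in both. Its difference was 0.05 (SE 0.25, 95% interval -0.50 to 0.60), which leaves room for a change of either sign. The 3 dimmer tested probe sets differed by 0.30, -0.25 and -0.28 with overlapping groups, and each of them was above background on at most 1 array. The 2 that were not tested, 1453860_s_at and 1421866_at, had mean signals of 2.28 to 8.90 in the 2 groups. On 1453860_s_at the groups did not overlap, with 3.84 to 4.76 in the knockdown against 0.948 to 3.75 in the control, all below the pseudocount. Over all probe sets but the controls, 3.92% were higher and 5.01% lower in this sense. Nr3c2 encodes the mineralocorticoid receptor, and its probe set read 2.22, 5.84 and 5.004 in the knockdown, against 3.89, 6.77 and 2.91 in the control, near or below the pseudocount throughout (exact permutation p = 1).

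The inhibitory receptors Sstr2 and Sstr5, the main targets of somatostatin analogues in corticotroph tumours, were both clear of background. Sstr2 read 921, 906 and 559.8 on knockdown arrays 1 to 3, against 670.4, 736 and 559.9 on control arrays 1 to 3. Knockdown was higher in repeats 1 and 2 and level with control in repeat 3, at 137%, 123% and 99.98% of the paired control. The means were 795 ± 204 with siDNMT1 and 655 ± 89.0 with siNT (SD, n = 3 each). The difference of Sstr2 was 0.25 (SE 0.21, 95% interval -0.20 to 0.71), with a limma adjusted p of 0.9997, and 0.671 with the block.

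Sstr5 read 283, 185 and 235 in the knockdown, against 241, 291 and 240.2 in the control. Its knockdown values lay above the paired control in repeat 1, below it in repeat 2 and level with it in repeat 3. The difference was -0.15 (SE 0.20, 95% interval -0.58 to 0.28), within the spread between repeats. Its sign rested on repeat 2, since it was 0.01 without knockdown array 2.

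Drd2, the dopamine D2 receptor, read 26.2, 15.6 and 38.3 in the knockdown, against 25.7, 24.1 and 25.1 in the control. The control arrays were close together, the knockdown arrays lay on both sides of them, and all 6 were below background. The difference was 0.02 (SE 0.35).

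Oprm1, the mu opioid receptor, stands for the receptor of beta-endorphin, another product of pro-opiomelanocortin. On 1451705_a_at the signal was 14.5, 12.5 and 10.5 in the knockdown, against 28.3, 24.4 and 23.999 in the control, or 51.1%, 51.2% and 43.7% of the paired control. The groups did not overlap under any of the 4 scalings, and the spread within each group was small. Yet all 6 values lay below background. The difference was -0.80 (SE 0.37), with a limma adjusted p of 0.9997 and an exact permutation p of 0.1, and it was -0.55 with a pseudocount of 16 and -0.99 with a pseudocount of 1. On another probe set, 1425432_at, it read 7.01, 27.0 and 40.05 in the knockdown, against 41.6, 30.2 and 13.4 in the control. Its repeats pointed in opposite directions. The other 2 Oprm1 probe sets were not tested and had mean signals of 8.70 to 15.01.

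Among the cytokine receptors, Il6st encodes gp130, the signalling chain shared by the receptors of interleukin 6 and leukaemia inhibitory factor. On its brightest probe set, 1452843_at, the signal was 86.9, 70.8 and 68.1 in the knockdown, against 106, 92.3 and 118 in the control. Every knockdown array was below every control array, at 82.3%, 76.7% and 57.7% of its pair. The means were 75.3 ± 10.1 with siDNMT1 and 105 ± 12.9 with siNT (SD, n = 3 each). The difference was -0.46 (SE 0.20, 95% interval -0.90 to -0.01), with a limma unadjusted p of 0.04405, an adjusted p of 0.9997, and 0.591 with the block. Under the 3 other scalings the groups overlapped and the difference was -0.40 to -0.43.

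Of the other tested Il6st probe sets, 1437303_at differed in the opposite direction and 1460295_s_at in the same direction but by less. 1437303_at read 88.0, 97.2 and 57.9 in the knockdown, against 77.3, 104 and 40.1 in the control, a difference of 0.19 (SE 0.32). 1460295_s_at read 47.3, 51.2 and 67.4 in the knockdown, against 57.2, 64.7 and 66.5 in the control, a difference of -0.18 (SE 0.22). Both overlapped between the groups, and over all 4 probe sets the mean difference of Il6st was -0.12. Lifr, the chain that binds leukaemia inhibitory factor, read 26.3, 19.0 and 10.3 in the knockdown, against 26.7, 19.1 and 10.7 in the control on its brightest probe set. The pairs were almost equal and the repeats far apart, all of them below background. The difference was -0.02 (SE 0.44), and 2 dimmer Lifr probe sets were not tested.

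**Figure D3:**
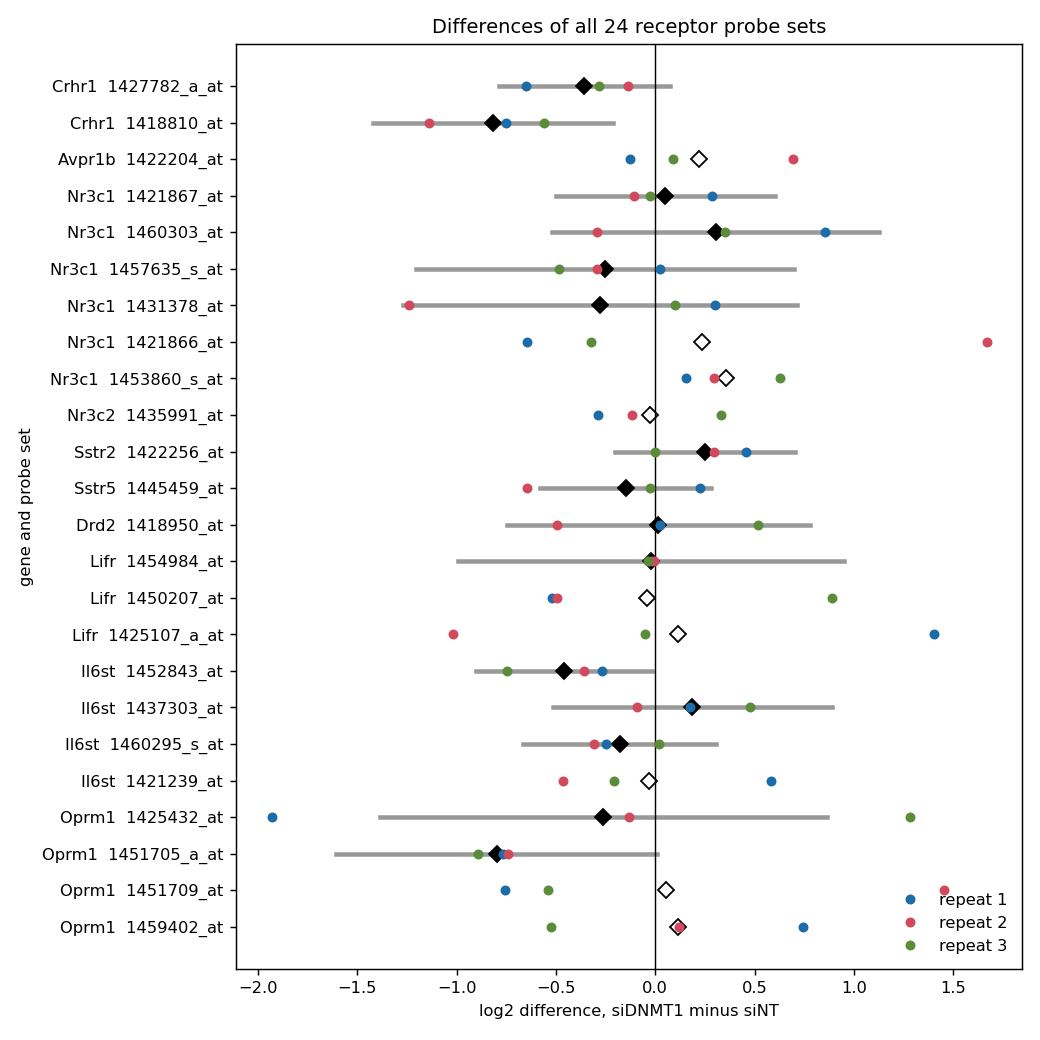
Log2 difference, siDNMT1 minus siNT (horizontal axis), for each of the 24 receptor probe sets. Coloured points are the 3 repeats, filled diamonds are means of tested probe sets with the 95% limma interval as a grey line, and open diamonds are means of probe sets below the filter. The 3 repeats lie left of 0 on both Crhr1 probe sets, on 1 of Il6st, 1 of Oprm1 and, by a hair, on 1 of Lifr.

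Over the receptors together, limma called 0 of the 15 tested probe sets without the block and 0 with it, where it called 0% and 0.0851% of all tested probe sets. Without the filter it called 0 of the 24 with the block, against 0.00222% of all. At an unadjusted p under 0.05 there were 2 of 15 without the block, both lower in the knockdown, against 3.79% of all tested probe sets, 2.47% lower and 1.32% higher. The same 2, Crhr1 1418810_at and Il6st 1452843_at, were under it with the block, against 7.83% of all, 5.38% lower and 2.45% higher. The groups did not overlap for 3 of 15, all lower in the knockdown, against 5.78% lower and 2.96% higher of all tested probe sets. In 3 of 3 repeats 5 of 15 were lower and 0 were higher, against 19.2% and 10.1% of all. The 15 differences ran from -0.82 to 0.30 with a median of -0.18, against a median of -0.06 over all tested probe sets, and 10 of the 15 were lower, against 59.2% of all. Of the 3 probe sets without overlap, those of Crhr1 and Il6st overlapped under the other scalings, and that of Oprm1 lay below background.

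The genes downstream of the receptors were read from 6 lists, with the brightest probe set for each gene. Over all tested probe sets, 59.2% were lower in the knockdown and 40.8% higher. An unadjusted p under 0.05 in limma was reached by 3.79% of them without the block and 7.83% with it. These shares are the background for the counts of every list. In CRH and cyclic AMP signalling, 17 of 22 tested genes had lower and 5 higher values in the knockdown, with a median of -0.13, and the count of lower genes was 13 to 16 under the other scalings. None of the 22 passed in either limma fit, and 0 without the block and 3 with it had an unadjusted p under 0.05. Prkar1a and Prkar2a, regulatory subunits of protein kinase A, differed by -0.29 (SE 0.14) and -0.44 (SE 0.22), the anchoring protein gene Akap5 by -0.92 (SE 0.47) and the transcription factor gene Creb1 by -0.38 (SE 0.21). Each of these 4, picked for the smallest p of the list, was lower in 3 of 3 repeats. Of all 22 tested genes of the list, 8 were lower and 1 higher in 3 of 3 repeats. Over all tested probe sets these shares were 19.2% and 10.1%. Akap5 was above background on 1 array only, and its difference came mostly from repeat 1, with repeats at -2.41, -0.17 and -0.17. The ligand genes Crh, Ucn and Ucn2 were below the filter, and Gnas, the stimulatory G protein, differed by -0.10 (SE 0.16) on its brightest probe set. Of its 4 dimmer tested probe sets, all lower, 1427789_s_at had the smallest p, with a difference of -0.70 (SE 0.24) and a limma adjusted p of 0.9997, or 0.219 with the block.

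In vasopressin and Gq signalling, 10 of 17 tested genes had lower and 7 higher values, with a median of -0.07. None passed in either limma fit, and 1 had an unadjusted p under 0.05 in each. That gene, Gnaq, encoding the G protein of the V1b receptor, read 145 ± 19.5 with siDNMT1 and 191 ± 9.89 with siNT (SD, n = 3 each), a difference of -0.39 (SE 0.18). Its 6 dimmer probe sets had differences of -0.29 to 0.32. Dgka, a diacylglycerol kinase gene, differed by 0.48 (SE 0.24), and the protein kinase C genes Prkca and Prkce by -0.34 (SE 0.23) and -0.26 (SE 0.19). A dimmer tested Prkca probe set, 1437393_at, had the opposite sign at 0.21 (SE 0.28), and the dimmer tested ones of Prkce were at -0.43 and -0.31.

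Around the corticosteroid receptors, 10 of 13 tested chaperone and coregulator genes had lower values (median -0.12, 8 to 10 lower under the other scalings). None passed, and 0 without and 1 with the block had an unadjusted p under 0.05 in limma. Smarca4, an ATPase of the BAF remodelling complex, differed by -0.26 (SE 0.17), Hsd11b1, which regenerates active glucocorticoid, by -0.30 (SE 0.21), the chaperone gene Hspa8 by -0.13 (SE 0.13) and the coactivator gene Ncoa1 by -0.19 (SE 0.21).

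Glucocorticoid-induced genes were split evenly, 8 lower and 8 higher of 16 tested, with a median of 0.04, and 11 were higher with trimmed mean or quantile scaling. On the brightest probe sets 0 passed without the block and 0 with it. At an unadjusted p under 0.05 in limma there were 2 and 6, against 3.79% and 7.83% of all tested probe sets. The metallothionein gene Mt2 averaged 3547 ± 150 with siDNMT1 and 2609 ± 289 with siNT (SD, n = 3 each), a difference of 0.45 (SE 0.13). Nfkbia, the inhibitor of NF-kappa-B, differed by 0.58 (SE 0.19), and rose by 0.64 on another of its probe sets, 1420088_at, the one call among the lists (limma adjusted p = 0.0491 with the block, 0.9997 without it, and 0.403 with the block but no filter). The transcription factor genes Cebpd and Zbtb16 differed by 0.43 (SE 0.21) and -0.42 (SE 0.25). Fkbp5 and Tsc22d3, targets used widely as readouts of the receptor, differed by -0.05 (SE 0.23) and 0.34 (SE 0.22).

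In somatostatin, dopamine and opioid Gi signalling, 16 of 24 tested genes had lower values, a count that was 11 to 14 under the other scalings, and the median was -0.05. None passed in either limma fit, and 2 without and 4 with the block had an unadjusted p under 0.05. Gnao1, encoding the G protein subunit Go, read 66.6 ± 8.94 with siDNMT1 and 152 ± 42.4 with siNT (SD, n = 3 each), a difference of -1.10 (SE 0.23) with a limma adjusted p of 0.572, and 0.139 with the block. Its 2 dimmer probe sets were at -0.32 and -0.19. Rgs16, a regulator that shortens G protein signals, differed by 0.95 (SE 0.37), with repeats at -0.13, 1.98 and 1.00. The potassium channel gene Kcnj9 differed by -0.74 (SE 0.35) and the receptor kinase gene Grk3 by -0.36 (SE 0.21). Rgs16 was above background on 3 arrays and Kcnj9 on 1. Of the other somatostatin receptors, Sstr4 differed by 0.38 (SE 0.24), and Sstr1 was below the filter.

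In LIF and gp130 cytokine signalling, 13 of 22 tested genes had lower and 9 higher values with a median of -0.03, and the median was 0.03 with trimmed mean and 0.04 with quantile scaling. None passed in either limma fit, and 0 without and 1 with the block had an unadjusted p under 0.05. The kinase gene Jak1, above background on 2 arrays, differed by -0.64 (SE 0.31), the feedback inhibitor gene Cish by 0.37 (SE 0.19), the receptor chain gene Cntfr by -0.34 (SE 0.20) and the transcription factor gene Stat5a by 0.34 (SE 0.21). Stat3 and its feedback target Socs3 differed by 0.16 (SE 0.22) and -0.31 (SE 0.27) with overlapping groups.

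**Figure D4:**
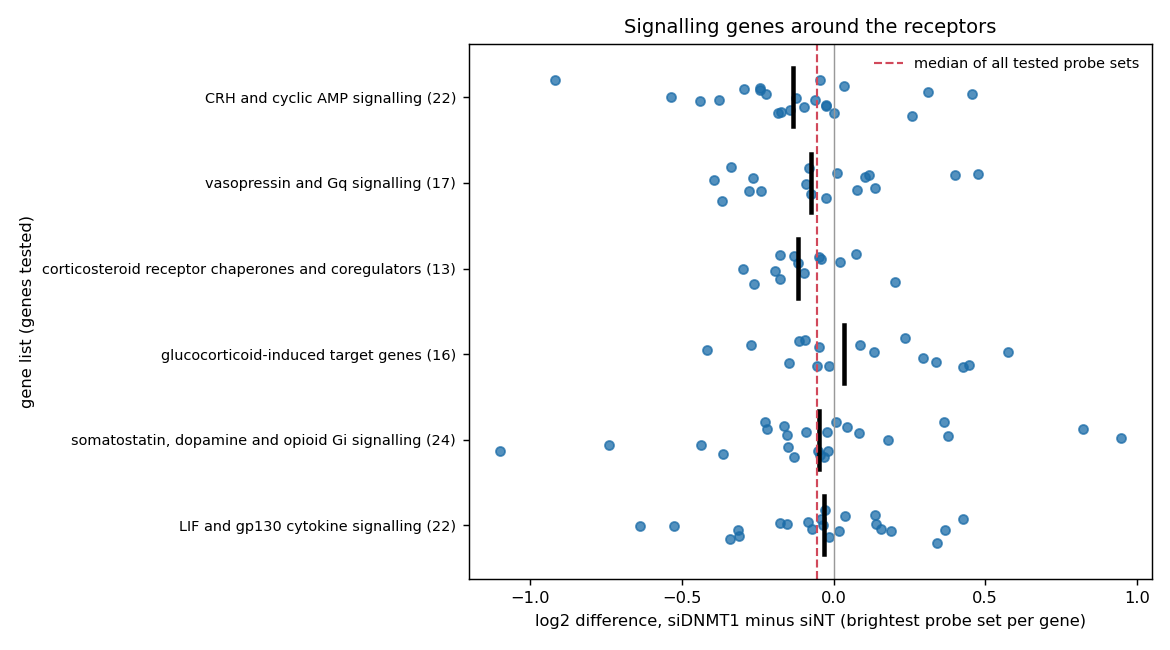
Log2 difference, siDNMT1 minus siNT (horizontal axis), of the tested genes of the 6 signalling lists, 1 point per gene on its brightest probe set, with points spread vertically for legibility. Black bars are list medians, from -0.13 for CRH and cyclic AMP signalling to 0.04 for glucocorticoid-induced genes, and the dashed line is the median of all tested probe sets, -0.06.

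The genes whose log2 values followed a receptor most closely over the 6 arrays were found among 13476 other genes, by Pearson correlation on brightest probe sets. They were Polr3k and Klhl23 for Crhr1 (r = 0.98 each), Grtp1 and Jade3 for Sstr2 (0.99 and 0.98), Sbno1 and Coa3 for Sstr5 (0.99 each), Fasn and 4930548G14Rik for Nr3c1 (0.99 each) and Senp5 and Eif2b3 for Il6st (0.98 each). For the receptors at background level they were Cmtm5 and Tssc4 for Drd2, Gm2102 and Atr for Lifr, and Ift74 and Dedd2 for Oprm1. The 6 arrays share their repeats and scaling, and 52 to 203 genes correlated above 0.9 with each receptor, so the order among them is loose. High correlations also arise by chance when 13476 genes are compared over 6 arrays. Whether any of these exceeds chance was not tested, so they are a description and not evidence of shared regulation.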

How the data were processed

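The submitters' processing notes name GCOS, the Affymetrix operating software, for the deposited table, which holds 1 signal intensity per probe set for each of 6 arrays. Which version and settings were used, and whether detection calls were made, is not given in the sources used here. Between arrays the 2% trimmed means of these intensities differed up to 1.998-fold, and every array was brought to a common median of log2 values. Both arrays of repeat 2 were the brightest before scaling, with trimmed means of 140.1 and 140.2, against 70.2 to 93.4 on the others. The pseudocount of 5.29 is the 20th percentile of all values. Leaving out 64 controls, the 27022 probe sets whose mean scaled signal reached the 40th percentile were tested, with limma 3.58.1 in R 4.3.3 (eBayes with trend, two-sided) and the Benjamini-Hochberg adjustment over all of them. Symbols came from the platform annotation. The number of arrays limits the precision. The fit was tested on simulated data.

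Arrays were grouped by title. Deviations from group means of same-numbered arrays correlated at 0.173, 0.231 and 0.257, each above 0.1. Those of differently numbered arrays correlated at -0.179 to -0.0283. The numbers were therefore taken to pair the arrays, and the fit with the repeat as a block stands beside the fit without it. What made same-numbered arrays alike, such as the shared brightness of repeat 2, was not tested. The limma p-values rest on the spread of the independent repeats within each group, or with the block on that of their paired differences. In both fits limma draws the variance of each probe set towards the trend over all tested probe sets.

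The members and gene lists were chosen with earlier results of these data known. Named from each list were the up to 4 tested genes with the smallest unadjusted p, any gene past the threshold in either fit, and for each tested member the 2 genes most correlated with it. Crh, Ucn, Ucn2, Gnas, Fkbp5, Tsc22d3, Sstr1, Sstr4, Stat3 and Socs3 fall outside that rule and were chosen after their values were seen. A few listed genes had no probe set of that symbol alone and were not analysed here. Protein sequences were not used here.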

Additional observations from a re-analysis of the deposited data

How the results depend on the processing

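Over 23 alternatives limma called 0 receptor probe sets, except 1, Crhr1 1418810_at, with the block and without repeat 3 (difference -0.94), a fit of 2 pairs with 1 residual degree of freedom. On the lists, the brightest probe sets gave 0 calls, except 1 without repeat 2 (Nfkbia) and 2 without repeat 3 (Nfkbia and Gnao1), both with the block. Over the whole array the 0 calls became 23 with the replicate block, 1 with trimmed mean scaling, quantile scaling, the stricter filter or no cross-hybridising probe sets, and 2 with no scaling. They became 0 to 4 when 1 array was left out, and 41 to 266 when 1 pair was left out of the block. The block gave 3 with trimmed mean scaling, 4 with quantile scaling and 1 without the filter, all of which were chosen after seeing the data.

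Of the 8 tested receptor genes 5 had lower values, and 3 to 6 with 1 array left out. On its brightest probe set, Dnmt1 differed by -1.54 with the block. With an array or pair left out the difference was -1.79 to -1.17 (unpaired -1.79 to -1.26, paired -1.65, -1.17 and -1.79). The blocked call of this probe set was lost with trimmed mean scaling, quantile scaling or no filter (limma adjusted p = 0.0551, 0.0527 and 0.248). The sign of 5 differences changed. Drd2 ranged over -0.24 to 0.29 with an array left out and was -0.24 with the block without repeat 3. Lifr ranged over -0.29 to 0.25, and was 0.024 with trimmed mean scaling, blocked or not, 0.0088 with no scaling and 0.017 as the mean over its probe sets. Nr3c1 ranged over -0.18 to 0.20 (-0.068 with the block without repeat 1). Oprm1 ranged over -0.66 to 0.28 (with the block 0.57 without repeat 1 and -1.03 without repeat 3). Sstr5 ranged over -0.29 to 0.0076 (with the block 0.10 without repeat 2 and -0.34 without repeat 1). The cause of these changes of sign was not tested. The sign held under every alternative run for Crhr1 (-0.59 to -0.21), its probe set 1418810_at (-1.11 to -0.57), Il6st (-0.56 to -0.12), Oprm1 1451705_a_at (-0.99 to -0.55) and Sstr2 (0.13 to 0.48). All probe sets of Avpr1b, Nr3c2, Drd2, Lifr and Oprm1 lay below background, which limits what can be said of these genes.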

Other observations

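The Sstr2 and Crhr1 differences can be set against each other within each array, which removes the array scaling. This pair was chosen after its values were seen, and it is given as a description with no test. In the deposited signals the ratio of Sstr2 to Crhr1 1418810_at was higher in siDNMT1 than in siNT by 2.36-fold, 2.78-fold and 1.51-fold in repeats 1 to 3. With the other Crhr1 probe set it was higher by 2.19-fold, 1.36-fold and 1.23-fold. Both ratios were thus higher in 3 of 3 repeats. That follows from the values given above, Crhr1 lower in each repeat and Sstr2 higher or level, and adds no independent evidence.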
